A study of Mus musculus with 18 samples.

Results

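Untreated mpkCCD libraries numbered 4 to 6 were compared with untreated libraries numbered 1 to 3 over all genes. These are 6 of the 18 RNA sequencing libraries of the series. The libraries were chosen by replicate number after earlier results of these data had shown that the numbers fall into sets that stand apart. The contrast was therefore selected on the values described here, and it is given as a description with no test. mpkCCD cells are an immortalised mouse line with features of collecting duct principal cells, and the labels' protocols name the mpkCCD11 line as the source of all libraries. In all groups confluent monolayers were kept without serum for 24 h and then for another 24 h in serum-free medium. The control group had no further agent, and the dDAVP group, whose libraries 1 to 6 are used below, received 0.1 nM dDAVP (desmopressin, an agonist of the V2 vasopressin receptor) for the last 24 h. From 20 ng of RNA as input, the labels describe amplification both with an ultralow-input system and by a method made for single cells, without assigning either to a library. Library protocol, culture and sequencing run therefore cannot be told apart from the replicate number. Nothing says that the replicates were separate cultures, so their spread may be technical.

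Collecting duct epithelium is held together by cadherin junctions, desmosomes and claudins, and its keratins and cortical actin give the monolayer its shape. Actin filaments grow from profilin-bound monomers, branch through the Arp2/3 complex and are cut by cofilin, while thymosin beta-4 holds monomers in reserve. The V2 receptor signals through cAMP, which also loosens cortical actin as aquaporin-2 vesicles reach the apical membrane. Ribosomal proteins are made in near-equal numbers for assembly into ribosomes, and their messages are short and among the most abundant in growing cells.

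Control libraries 1 to 6 each held between 23.4 and 36.5 M counted reads, and 11414 to 11734 genes had a count in each. Among the 9926 genes that passed the filter on low counts, the correlation of log2 levels was 0.98 to 0.99 between libraries 1 to 3, 0.92 to 0.93 between libraries 4 to 6, and 0.61 to 0.71 across the sets. The spread within a set was also wider in 4 to 6, where the biological coefficient of variation came to 0.565 against 0.230 in 1 to 3. Epithelial genes were present in all 6 libraries. Of the markers of other kidney and blood cells, 11 of 12 for proximal tubule, 7 of 8 for thick limb and distal tubule, 7 of 8 for endothelium and 7 of 9 for immune cells were at or under 3 counts in every library. Of 5 podocyte markers only 2 were, and Podxl, which is not confined to podocytes, was at 8.71, 6.55 and 7.68 normalised CPM in libraries 1 to 3 and at 3.52, 0.981 and 4.55 in 4 to 6. These 5 lists each held at most 0.000835% of the counts of any of the 6 libraries.

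Coding sequences of 3 genes are shown as examples. The very short messages of Tmsb4x and Rpl39 were among those that fell most. The intronless Junb was low in libraries 1 to 3 and rose by 4.81 ± 0.36 on the log2 scale, but was not among the 8 largest increases. The sequences are read from GENCODE M21 on GRCm38. The start codon and, where the printed run reaches it, the stop codon are in capitals. Tmsb4x (thymosin beta-4, chrX:167207093-167209315, minus strand) and Rpl39 (a protein of the large ribosomal subunit, chrX:37082520-37085402, minus strand) are shown whole, as 135 and 156 bases. Junb (an AP-1 transcription factor, chr8:84974484-84978718, minus strand) is shown for its leading 150 coding bases. GC content of the whole coding sequence was 40% for Tmsb4x, 44.2% for Rpl39 and 64.7% for Junb.
Tmsb4x: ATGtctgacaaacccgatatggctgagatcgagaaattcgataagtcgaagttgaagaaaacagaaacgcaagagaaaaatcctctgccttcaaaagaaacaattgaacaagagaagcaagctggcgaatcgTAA
Rpl39: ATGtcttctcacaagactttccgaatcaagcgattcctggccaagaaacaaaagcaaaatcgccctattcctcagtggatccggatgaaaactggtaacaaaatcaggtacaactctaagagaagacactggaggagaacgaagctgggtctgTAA
Junb: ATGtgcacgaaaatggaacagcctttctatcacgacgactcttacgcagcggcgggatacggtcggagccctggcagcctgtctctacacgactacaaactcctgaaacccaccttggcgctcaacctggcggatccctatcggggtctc

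Levels below are normalised CPM, library-size-scaled counts (CPM) with totals adjusted by TMM (trimmed mean of M-values), and changes are log2 fold changes of libraries 4 to 6 over 1 to 3 with their standard errors from edgeR's quasi-likelihood fit. A gene is called where the Benjamini-Hochberg adjusted p of that fit is under 0.05, used here only to mark changes that are large against the spread within the sets; "rose" and "fell" refer to called genes. In the control libraries 3312 genes were called higher in 4 to 6 (33.4% of those fitted) and 2599 lower (26.2%), 59.6% in all. Counts of called genes in each list below are read beside these shares. A gene hardly counted in libraries 1 to 3 can pass the filter through libraries 4 to 6 alone, and can then only rise. The reverse holds for genes hardly counted in 4 to 6. The list counts below can include such genes, whose direction the filter fixed. The median change over all 9926 genes was 0.31, so that lists are read beside that value. It was 0.12 with RLE (relative log expression) size factors and 0.68 when only library totals were used. The split of called genes between higher and lower was 56% to 44%, and 66.4% to 33.6% with library totals only. In bulk RNA, fewer cells of a type and less RNA per cell cannot be told apart.

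Actin and actin-regulating genes moved far apart from one another. Of 45 listed genes 37 passed the filter, of which 7 rose and 20 fell; the median was -1.03. Actb, which encodes cytoplasmic beta-actin, stood at 2283, 3301 and 1936 in control libraries 1 to 3 and at 45333, 21282 and 36787 in libraries 4 to 6. The sets did not overlap, and the change was 3.78 ± 0.46 (SE), or 13.8-fold. Actg1, which encodes the near-identical gamma-actin, stood at 5175, 3507 and 4059 in libraries 1 to 3 and at 3724, 1303 and 1212 in 4 to 6. Its sets overlapped, since control library 4 lay within the range of 1 to 3, and its change of -1.03 ± 0.46 was not called; without control library 4 it was -1.84. Per length, in FPKM, the ratio of Actb to Actg1 was 0.442, 0.944 and 0.478 in control libraries 1 to 3 and 12.2, 16.4 and 30.4 in 4 to 6.

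The subunits of the Arp2/3 complex, which nucleates branched filaments, changed by very different amounts. Actr2, the Arp2 subunit, was at 12.4, 15.8 and 10.7 normalised CPM in libraries 1 to 3 and at 18550, 8074 and 9929 in 4 to 6, a change of 9.88 ± 0.57 (941-fold). Its partner Actr3, the Arp3 subunit, was at 64.1, 86.5 and 51.3 and then 94.9, 89.0 and 89.0, a change of 0.43 ± 0.27 that was not called. The FPKM ratio of Actr2 to Actr3 was 0.138, 0.130 and 0.148 in libraries 1 to 3 against 139.4, 64.7 and 79.6 in 4 to 6. Arpc4 rose by 3.74 ± 0.42 on the log2 scale, Arpc2 was at -0.11 ± 0.27, and Arpc3 fell by 2.92 ± 0.36. Arpc1b fell by 1.28 ± 0.27 and Arpc5 fell by 0.94 ± 0.29, while Arpc1a was at -0.54 ± 0.24, not called. Subunits of a single complex thus moved in opposite directions. Their levels were not more unequal in 4 to 6: the FPKM of the highest over the lowest of the 8 subunits was 223.5, 206.9 and 246.4 in control libraries 1 to 3 and 139.4, 64.7 and 79.6 in 4 to 6. These subunits were picked out after their values were seen. In control libraries 7 to 9 the FPKM ratio of Actr2 to Actr3 was 0.119, 0.0822 and 0.235.

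Among regulators of the filament, messages of thymosin beta-4, destrin and cofilin-1 fell, while those of Wdr1 and profilin-1 rose. Tmsb4x went from 2484, 2760 and 1547 to 15.1, 56.6 and 23.3, a change of -6.16 ± 0.59 (71.3-fold). Dstn (destrin) went from 4019, 3229 and 3579 to 166.5, 141.0 and 122.1, and Cfl1 (cofilin-1) fell by 4.17 ± 0.43. For all 3 genes every library of 4 to 6 lay far below every library of 1 to 3. Wdr1, a cofactor of cofilin, went the other way, from 50.0, 66.5 and 55.7 to 516.0, 315.7 and 346.8. Pfn1 (profilin-1) rose by 1.37 ± 0.35. Of 16 myosins and tropomyosins fitted, 3 rose and 7 fell, with a median of -0.61, beside 33.4% and 26.2% of all genes fitted. The essential light chain Myl6 fell by 3.95 ± 0.30 and caldesmon (Cald1) fell by 4.18 ± 0.32, while the heavy chain Myh9 rose by 2.93 ± 0.40.

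**Figure D1:**
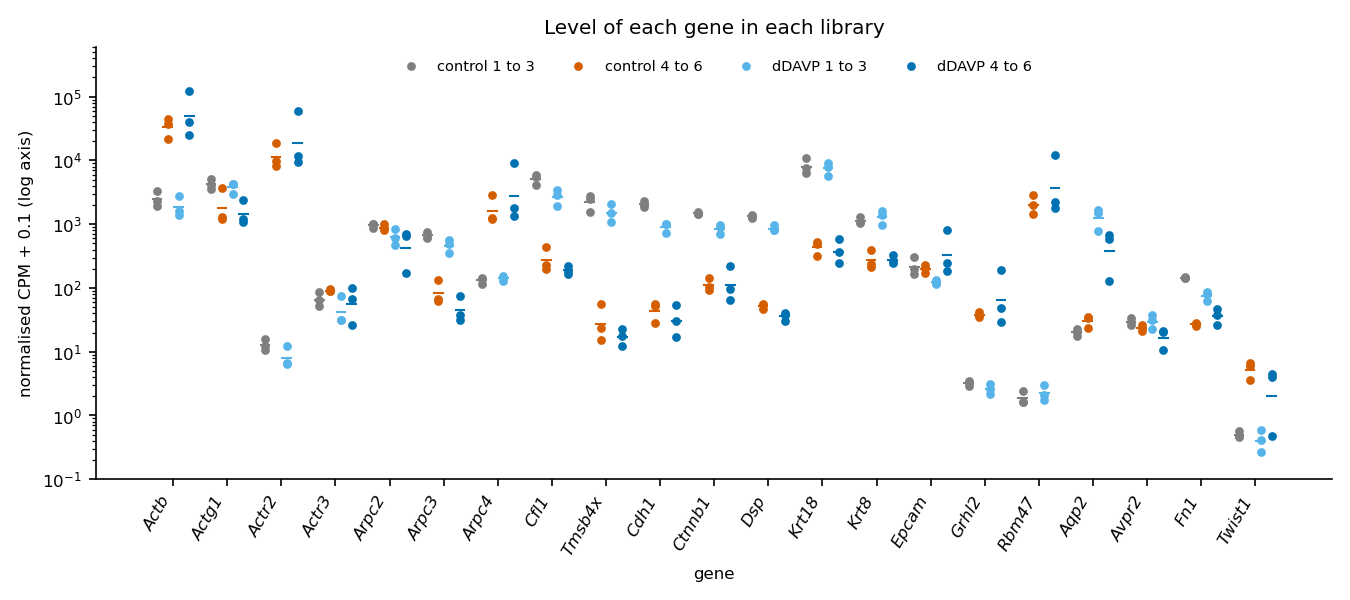
Level of 21 genes in control and dDAVP libraries 1 to 3 and 4 to 6, as normalised CPM plus 0.1 on a log axis; points are libraries and bars are geometric means of 3. Actr2 lies near 10 in libraries 1 to 3 and between 8074 and 59640 in libraries 4 to 6, while Actr3 and Arpc2 stay within a far narrower range.

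Junction genes also lay on both sides, with the core of the adherens junction lower. Of 32 listed genes 27 passed, of which 6 rose and 10 fell, beside 33.4% and 26.2% of all genes fitted, so that about as large a share was called as over all genes; the median of -0.23 turned to 0.09 with library totals only. Cdh1 (E-cadherin) stood at 1996, 2311 and 1837 in libraries 1 to 3 and at 56.6, 52.7 and 28.0 in 4 to 6, a change of -5.48 ± 0.40 (44.7-fold). In control libraries 7 to 9 Cdh1 was at 363.0, 60.2 and 96.2 CPM without TMM scaling, against 1598, 2113 and 1799 in 1 to 3 and 44.3, 76.3 and 34.3 in 4 to 6 on that scale. Its cytoplasmic partners alpha-catenin (Ctnna1, -4.01 ± 0.31) and beta-catenin (Ctnnb1, -3.72 ± 0.31) fell as well. No library of 4 to 6 came near any library of 1 to 3 for these 3 genes. Claudin 8, a claudin of the collecting duct, fell by 4.30 ± 0.40 as Cldn8, whereas Cldn3 was at 0.48 ± 0.26, not called, with levels of 201.1 to 267.8 and then 313.8 to 386.5. Tjp1 (ZO-1) fell by 2.71 ± 0.50, but its paralog Tjp3 (ZO-3) rose by 2.82 ± 0.37 and occludin (Ocln) by 2.06 ± 0.55. Cldn1 had 0 counts in libraries 1 to 3 and stood at 0.509, 0.286 and 4.06 in 4 to 6. Its mean of 1.62 in 4 to 6 was at least 11.9-fold higher than a floor of 3 counts in each library. That mean rests mainly on control library 6, and the other levels were near the floor.

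Of 9 desmosomal genes fitted, 2 rose and 5 fell, beside 33.4% and 26.2% of all genes fitted. Dsp (desmoplakin), whose message is 9589 bases long by the lengths behind the FPKM values, went from 1248, 1308 and 1413 to 53.8, 55.3 and 47.1, a change of -4.67 ± 0.30. Of 6 keratins fitted none rose and 4 fell. Krt18 stood at 10710, 6354 and 7587 and then at 496.6, 530.5 and 313.2, a change of -4.20 ± 0.40. Krt8, with which it pairs in simple epithelial filaments, changed by -2.01 ± 0.33, from 1300, 1039 and 1063 to 398.4, 237.1 and 209.4. The partners thus fell by unequal amounts, and the FPKM ratio of Krt18 to Krt8 went from 10.6, 7.88 and 9.20 to 1.61, 2.88 and 1.93. In control libraries 7 to 9 that ratio was 3.43, 0.973 and 1.10, below every library of 1 to 3 as well. Krt19 was at 0.10 ± 0.26 and was not called.

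Epithelial regulators and surface markers gave 7 that rose and 12 that fell of 30 fitted, beside 33.4% and 26.2% of all genes fitted. Their median was -0.62, yet the list held 0.93% to 1.31% of counts in libraries 1 to 3 and 1.9% to 2.18% in 4 to 6. Epcam, an epithelial surface adhesion protein, was at 194.8, 305.4 and 164.7 and then 174.3, 227.6 and 205.6; the ranges overlapped and the change of -0.13 ± 0.30 was not called. Rbm47, an RNA-binding splicing regulator of epithelia, went from 1.52, 2.29 and 1.55 to 2884, 1420 and 1972, a change of 10.19 ± 0.50. Grhl2, a transcription factor that drives Cdh1 in epithelia, rose from 2.83, 3.14 and 3.32 to 36.9, 34.5 and 41.2 while Cdh1 fell. Elf3, an epithelial ETS factor, fell by 2.59 ± 0.28. An epithelial identity factor and the gene it is known to drive thus lay on opposite sides of the contrast.

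Principal cell genes gave 6 that rose and 7 that fell of 18 fitted, beside 33.4% and 26.2% of all genes fitted. Their median of -0.06 turned to 0.32 with library totals only. Channel and receptor genes of the vasopressin response were divided. Aqp2, the vasopressin-regulated water channel, was at 17.6, 20.5 and 22.9 and then 33.7, 23.1 and 34.8, a change of 0.59 ± 0.28. Avpr2, the V2 receptor, was at -0.33 ± 0.26 and Scnn1a, the alpha subunit of the epithelial sodium channel, at 0.00 ± 0.29; none of the 3 was called. Scnn1b, the beta subunit of the same channel, rose by 3.81 ± 0.49, from 0.315, 0.421 and 0.443 to 5.14, 4.62 and 6.98. In the dDAVP libraries the same contrast of Scnn1b was 0.64 ± 1.28, not called. Aqp3, a basolateral water channel, rose by 4.08 ± 1.02, though it stayed at or under 1.21 normalised CPM in all 6 libraries. In contrast, Atp1b1, the beta subunit of the sodium pump, fell by 4.21 ± 0.35. Gata3, a transcription factor of the collecting duct, rose from 7.56, 8.84 and 8.83 to 88.6, 73.8 and 86.9, and Hsd11b2, the enzyme that guards the mineralocorticoid receptor from glucocorticoids, rose by 4.10 ± 0.53. Of 9 intercalated cell genes fitted 6 rose and none fell. Hmx2, at 0.367, 0 and 0.185 in libraries 1 to 3, and Aqp6, at 0.105, 0.14 and 0.369, could pass the filter only through 4 to 6. Once fitted, these genes could only rise. Of the 18 intercalated cell genes listed, 7 were at or under 3 counts in all 6 libraries, among them the defining Foxi1, Slc4a1 and Slc26a4. The largest change within that list was of Jag1, a Notch ligand, at 1.05, 1.87 and 1.55 and then 854.8, 170.2 and 906.1.

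Mesenchymal genes were mostly not detected on either side. Of 36 listed markers and transition regulators 21 were at or under 3 counts in all 6 libraries, among them Zeb1, Zeb2, Snai1, Snai2 and Pdgfra. The filter was passed by 10, of which 3 rose and 4 fell, beside 33.4% and 26.2% of all genes fitted. Their median was -0.18 (0.24 with library totals only). Vim (vimentin), Cdh2 (N-cadherin), Acta2 (smooth muscle actin), Tagln (transgelin) and Myl9 stayed under 1 normalised CPM in each of the 6 libraries. Fn1 (fibronectin) was lower in 4 to 6, at 28.1, 25.4 and 27 against 141.1, 142.9 and 150.9, a change of -2.43 ± 0.24. Twist1, a transition regulator, rose by 3.71 ± 0.52, from 0.367, 0.468 and 0.369 to 3.47, 5.86 and 6.56, which is a low level in all libraries. Lower Cdh1 counts stood beside near-absent counts of Vim, Cdh2, Acta2, Tagln and Myl9 in both sets, lower Fn1 and higher Twist1. Whether the cells differed in state was not tested.

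Matrix genes gave 8 that rose and 3 that fell of 17 fitted, with a median of 0.88 (0.18 on the FPKM values). The perlecan gene Hspg2 rose by 4.70 ± 0.48 and the basement membrane collagen Col4a1 by 3.36 ± 0.53, both from under 1 normalised CPM in libraries 1 to 3. The laminin chain Lamb1 fell by 2.84 ± 0.28. Of 27 integrin and focal adhesion genes 11 rose and 8 fell, with a median of 0.06 (-0.13 with RLE size factors). Over all genes fitted 33.4% rose and 26.2% fell. Itgb6, an epithelial integrin chain, went from 4.20, 9.55 and 3.03 to 1931, 556.1 and 780.0, and Itgb1, the most widely shared beta chain, from 71.7, 95.3 and 55.1 to 4.54, 12.9 and 9.73.

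Targets and cofactors of serum response factor (SRF), which links the pool of free actin to transcription, gave 11 that rose and 4 that fell of 18 fitted, with a median of 1.52. Junb went from 2.26, 1.22 and 1.51 to 52.0, 37.9 and 50.2. Mkl2, a coactivator that actin monomers hold back from SRF, rose by 4.04 ± 0.34, from 22.7, 30.2 and 37.8 to 639.3, 398.4 and 452.2, and Mkl1 by 2.65 ± 0.45. Vcl (vinculin), a focal adhesion protein, fell by 3.40 ± 0.39. Of the most specific smooth muscle members, Tagln, Cnn1, Myh11, Lmod1 and Myocd were at or under 3 counts in all 6 libraries.

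SRF binds the CArG box, CC and GG around 6 bases that are each A or T. RefSeq promoter windows of GRCm38.p6, from 250 bases before to 50 after a gene's start, were searched. Among genes with a window, the box was found in 5 of 16 serum response genes, 5 of 39 actin genes and 2 of 16 myosin genes. Over all 27025 genes with a window the share was 1.81%. The serum response list was made up of SRF targets and cofactors, so a larger share there is built in. Among genes with a box, Actc1 and Vil1 were at or under 3 counts in all 6 libraries, and Myl9 stayed under 1 normalised CPM. A gene was counted if any of its windows held a box. The boxes below, in capitals, are shown because genes that hold one lay on both sides of the contrast. Actg1 is at chr11:120348566-120348595, minus strand, and was not called. Vcl (chr14:20929161-20929190, plus strand), Myl6 (chr10:128493040-128493069, minus strand) and Cnn2 (chr10:79988534-79988563, plus strand) fell, while Srf itself (chr17:46556225-46556254, minus strand) and Fhl2 (chr1:43163973-43164002, minus strand) rose.
Actg1: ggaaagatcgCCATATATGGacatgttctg
Vcl: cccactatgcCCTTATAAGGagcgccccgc
Myl6: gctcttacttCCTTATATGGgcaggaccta
Cnn2: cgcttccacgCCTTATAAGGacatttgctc
Srf: ctggggctcgCCATATAAGGagcggcctcg
Fhl2: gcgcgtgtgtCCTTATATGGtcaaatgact
The changes were -1.11 ± 0.26 for Cnn2, 1.29 ± 0.44 for Srf and 2.15 ± 0.28 for Fhl2. Arpc4, which rose, also holds a box in its window, and Actb was not searched. Genes with and without a box were not compared.

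Ribosomal protein messages were lower in libraries 4 to 6, by very different amounts from gene to gene. All 82 listed genes passed the filter, none rose, 63 fell and 19 were not called; the median was -2.86. They held 29.4%, 25.6% and 23.8% of the counts of control libraries 1 to 3 and 10.5%, 9.53% and 5.94% of those of 4 to 6. Counting error is at most 0.021 percentage points (from a 95% Wilson interval to either side) for the shares of counts given here, and such intervals cover counting error only. Rpl39 fell furthest, from 824.3, 521.8 and 353.4 to 2.18, 5.23 and 4.42 (-7.15 ± 0.52). Rplp0, a stalk protein often used as a reference gene, changed by -2.85 ± 0.45, and Rps6, the phosphorylated protein of the small subunit, by -1.13 ± 0.42. At the other end Rpl13a was at 0.64 ± 0.43 and Rps21 at 0.65 ± 0.37, neither called. The SD of log2(FPKM + 1) across the 82 genes within a library widened from between 1.8 and 1.85 in control libraries 1 to 3 to between 2.51 and 3.09 in 4 to 6. Across these 82 genes the change had a Spearman rho of 0.01 with length, given as a description. Many of these genes, and Actb, Actg1, Tmsb4x and Calm2, have near-identical copies elsewhere in the genome that could take or lose reads, so their single values are uncertain.

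Translation factors that share the terminal oligopyrimidine start of ribosomal protein messages gave 2 that rose and 15 that fell of 20, with a median of -2.51. Eef1a1, the elongation factor that carries tRNA to the ribosome, was the most counted gene of control libraries 1 to 3, at 6.98%, 5.45% and 5.35% of counts, and was at 1.26%, 1.51% and 0.78% in 4 to 6. Tpt1 (translationally controlled tumour protein) went the other way, from 17543, 15960 and 12065 normalised CPM to 78169, 41749 and 36850. Gnb2l1, which encodes the ribosome-bound scaffold RACK1, had the highest level of all genes in control library 4, with 109484 normalised CPM, but 26809 and 27436 in libraries 5 and 6, close to the 24131 of library 1. Messages of this class did not fall as a block.

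Nuclear genes of the respiratory chain were the list with the lowest median, at -3.02, with 56 of 61 called lower and none higher. Cox6c, a subunit of cytochrome oxidase, went from 650.9, 620.5 and 489.6 to 26.9, 26.5 and 19.4. Uqcrb, a subunit of complex III, fell by 6.37 ± 0.58. The list held 2.56% to 2.85% of counts in libraries 1 to 3 and 0.391% to 0.587% in 4 to 6. Mitochondrial ribosomal proteins gave 3 higher and 28 lower of 46 (median -1.32) and glycolysis and hypoxia genes 2 higher and 16 lower of 24 (median -1.46), with Ldha (lactate dehydrogenase) at 8341, 6929 and 9124 and then 168.5, 308.6 and 227.5. Of 42 cell cycle genes 9 rose and 22 fell. Sterol and fatty acid genes were divided, 12 higher and 10 lower of 25. Insig1, which holds the sterol sensor in the endoplasmic reticulum, went from 23.8, 37.2 and 22.7 to 6999, 3453 and 5557, and Scd2, a fatty acid desaturase, from 7452, 6691 and 6951 to 229.5, 225.2 and 134.7.

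**Figure D2:**
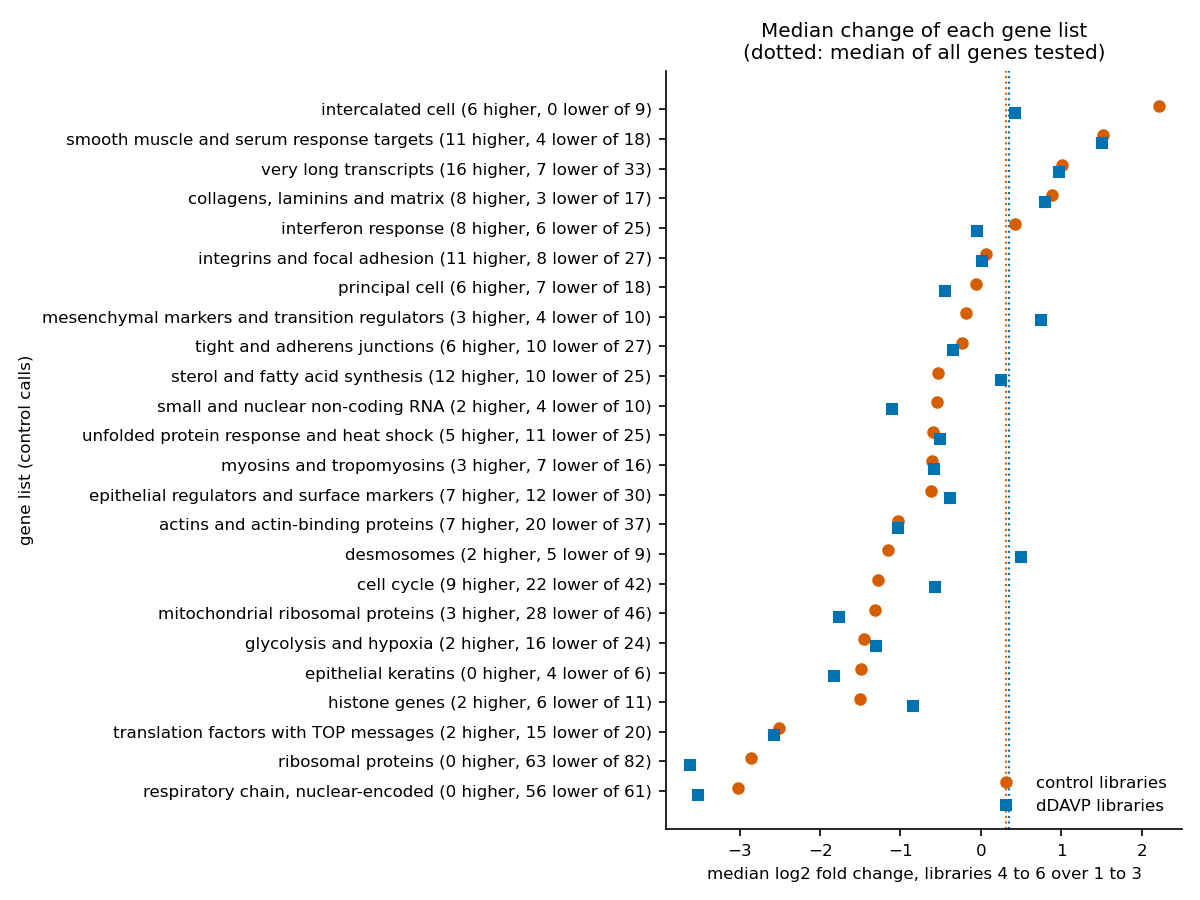
Median log2 fold change of libraries 4 to 6 over 1 to 3 for each gene list with at least 5 genes fitted, in control (circles) and dDAVP (squares) libraries, with the control calls beside each name. Respiratory chain and ribosomal protein genes lie lowest in both, at -3.02 and -2.86 in control, and serum response genes lie at 1.52.

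The largest changes reached over 1000-fold. Of the called genes 359 were more than 32-fold higher and 91 more than 32-fold lower. The 8 largest increases among genes of at least 5 normalised CPM were Lrp4, Zbtb26, Klhl9, Gja1, AI450353, Tmf1, Rbm47 and Maml2. Klhl9, a ubiquitin ligase adaptor, went from 1.10, 6.46 and 1.59 to 7385, 3667 and 5540. Lrp4, a receptor of the LDL receptor family, had 0 counts in libraries 1 to 3 and 4.26, 8.01 and 17.8 in 4 to 6, at least 73.5-fold higher than a floor of 3 counts per library. Gja1, which encodes the gap junction protein connexin 43, had 1 count in all in libraries 1 to 3 and stood at 54.9, 22.6 and 24.4 in 4 to 6. The 8 largest decreases were Rpl39, Calm2, Tgfbr1, Uqcrb, Wbp5, Tmsb4x, Psma6 and Gstm2. Calm2 encodes calmodulin, and fell from 4098, 3467 and 3132 to 13.4, 69.7 and 22; Tgfbr1, a receptor of transforming growth factor beta, was at 19.5, 28.1 and 32.1 and then 0, 0.123 and 0.669 (-6.50, and -8.32 without control library 6). By a rule set after the values were seen, 7 genes had at most 3 counts in each of control libraries 1 to 3 and at least 10 CPM in each of 4 to 6 (AI450353, Edaradd, Fhl3, Gja1, Tmprss13, Trim65 and Zbtb26), and 0 genes had the reverse. In control libraries 7 to 9, Gja1 was at 0, 0 and 0.065 CPM, but Trim65 was at 26.2, 0.954 and 3.62 CPM and Fhl3 at 4.30, 4.09 and 5.12 CPM.

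Counts in libraries 4 to 6 were more concentrated in the most counted genes and came from longer messages. The number of genes with a count was alike, at 11593 ± 160.2 in libraries 1 to 3 and 11589 ± 153.2 in 4 to 6 (SD, n = 3 per set), and more genes reached 1 CPM in 4 to 6 (8370, 9660 and 9356) than in 1 to 3 (7517, 7627 and 7713). The 20 most counted genes took 28.7%, 24.4% and 24.6% of counts in control libraries 1 to 3 and 45.7%, 39.3% and 38.5% in 4 to 6. There were 14 genes among the top 20 of all of libraries 1 to 3, of which 8 encode ribosomal proteins, and 17 among the top 20 of all of libraries 4 to 6, of which 0 do; only Tpt1 and Gnb2l1 were in both. Actb, Actr2, Set, Ptges3, Sept2 and Cd24a were among the 17. Genes with lengths up to 1000 bp held 31.3%, 30.3% and 27.6% of counts in libraries 1 to 3 and 15.8%, 16.1% and 11.3% in 4 to 6, while genes over 4000 bp rose from 5.86%, 7.37% and 7.27% to 19.6%, 19.5% and 24.6%. The mean length over counted reads was 1856 ± 73.9 bp (SD, n = 3) in libraries 1 to 3 and 2869 ± 196.2 bp (SD, n = 3) in 4 to 6. The sets did not overlap in the share of the top 20, the shares by length or the mean length.

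**Figure D3:**
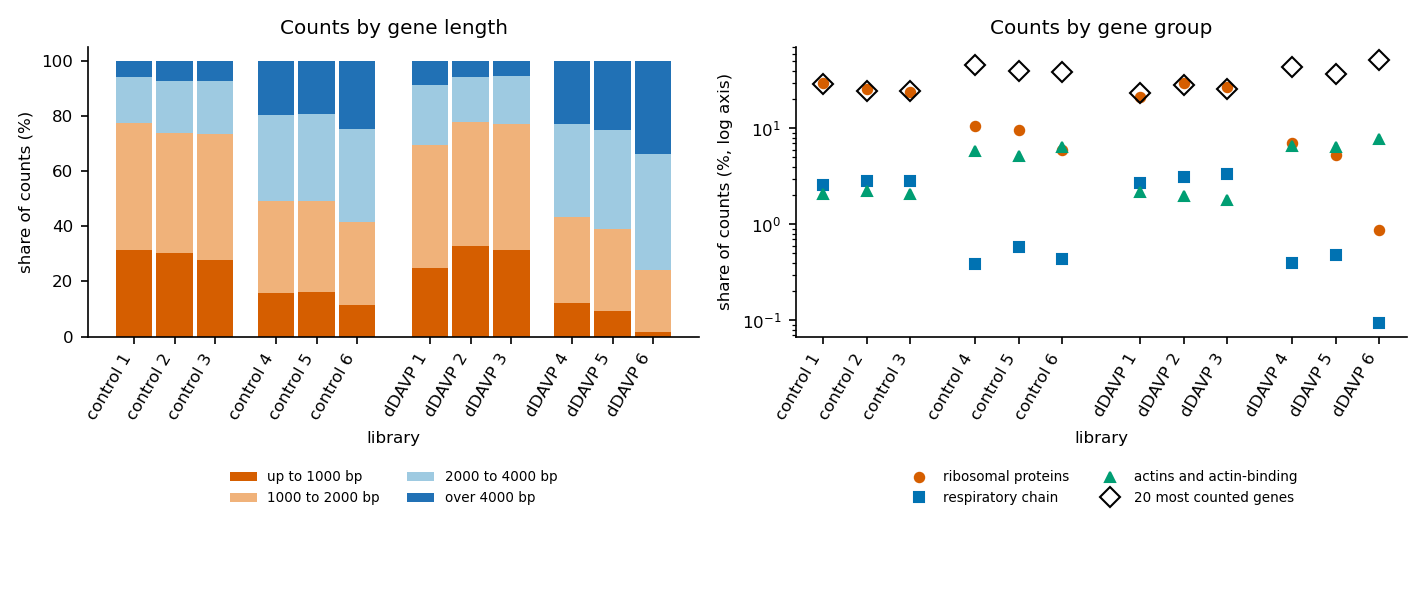
Share of counts by gene length (left, stacked bars in percent) and by gene group (right, log axis in percent) in each control and dDAVP library numbered 1 to 6. Genes up to 1000 bp hold 27.6% to 31.3% in control libraries 1 to 3 and 11.3% to 16.1% in 4 to 6.

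Gene by gene, the median change was -1.90 for the 94 genes up to 500 bp, -1.49 for 678 genes of 500 to 1000 bp and -0.29 for 1058 genes of 1000 to 1500 bp. Above 1500 bp it was flat, between 0.43 and 0.56. By this length the difference in control lay at the short end. By GENCODE coding length the control median went on rising, from 0.43 at 1000 to 1500 coding bases to 0.80 over 3000. In the dDAVP libraries the median by gene length rose from 0.19 at 1500 to 2000 bp to 0.91 over 6000 bp. In control the list of very long transcripts (16 higher and 7 lower of 33, median 1.01, and 0.09 on the FPKM values) held Dsp among its falling members. GC content went with the change as well: the median was -0.58 for 336 genes up to 40% GC and 1.82 for 483 genes over 60% GC, of which 68.7% were called higher. Within lengths of 2000 to 4000 bp it went from -0.39 (up to 45% GC) to 1.62 (over 55% GC). Weighted by reads the order was the reverse. Mean GC content over counted reads was 50.6 ± 0.145% in control libraries 1 to 3 and 48.6 ± 0.203% in 4 to 6 (SD, n = 3 per set). Single-exon genes had a median of 1.25, with 79 called higher and 23 lower of 164.

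The change also differed with the level of a gene in libraries 1 to 3 of the other treatment. Those libraries share the profile of control libraries 1 to 3, so that sorting by their level in itself places falling genes among the high ones and rising genes among the low ones, and low genes can pass the filter through libraries 4 to 6 alone. The values are therefore given as a description from which nothing is read. By mean FPKM in dDAVP libraries 1 to 3, the median change went from 1.38 for 3147 genes of 0.1 to 1 FPKM to 0.08 for 3342 genes of 1 to 10 FPKM, -1.28 for 1763 genes of 10 to 100 FPKM, and -2.98 for 155 genes over 1000 FPKM. Of the last 1.9% were called higher and 81.9% lower. Length, GC content and level are not independent: across 9354 genes the Spearman rho was -0.22 between length and GC content and -0.47 between length and level, as descriptions. Actb, Tpt1, Eef1b2 and Gnb2l1 were abundant in libraries 1 to 3 and higher on average in 4 to 6.

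**Figure D4:**
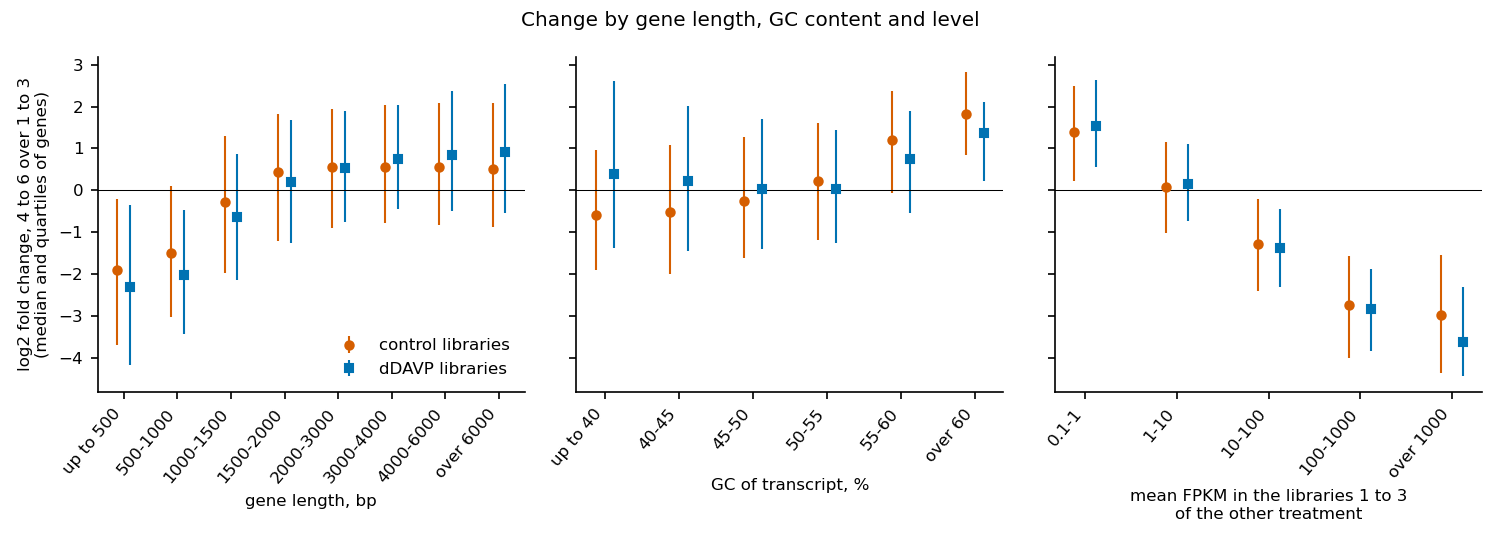
Log2 fold change of libraries 4 to 6 over 1 to 3 in bins of gene length (bp), transcript GC content (%) and mean FPKM in the libraries 1 to 3 of the other treatment, with medians as points and quartiles as bars, for control (circles) and dDAVP (squares). Genes over 1000 FPKM have a median of -2.98 in control and genes over 60% GC one of 1.82.

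The same contrast was tested in the dDAVP libraries, which share no library with the control contrast, although their division by number had been noticed as well. There 1984 of 9580 genes were called higher (20.7%) and 1649 lower (17.2%) by edgeR's quasi-likelihood test; without dDAVP library 6, whose TMM factor of 0.386 stood apart, these were 2888 and 2506. Of the 3312 genes called higher in control, 2992 were fitted in dDAVP, 97.5% had the same sign, against 56.1% of all genes fitted in dDAVP, and 56.1% were called higher, while 2 were called lower. Of the 2599 called lower in control, 2588 were fitted, 95% had the same sign, against 43.9% of all, 59.4% were called lower and 0 higher. The filter on low counts limits these shares. A gene hardly counted in the lower-numbered dDAVP set passes only through the higher-numbered set, and can then only be higher. The reverse holds for a gene hardly counted in the higher-numbered set. Agreement of sign can therefore be partly built in, and by how much was not measured. Across 9389 genes the changes had r = 0.90, and across the 82 ribosomal protein genes r = 0.97, as descriptions over genes that share their libraries.

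In the dDAVP libraries ribosomal proteins gave 0 higher and 61 lower of 82 (median -3.62) and the respiratory chain 0 and 53 of 61. Actin genes gave 5 and 16 of 37, and serum response genes 5 and 3 of 17. The median over all genes was 0.35. Other lists were less alike. The desmosome median was 0.50, against -1.16 in control, and the mesenchymal median 0.75, against -0.18. Intercalated cell genes gave 2 higher and 0 lower of 9 (median 0.43), and matrix genes 2 and 3 of 17. For lists, the difference between treatments was not tested. Actr2 was at 12.2, 6.20 and 6.54 in dDAVP libraries 1 to 3 and at 11661, 9503 and 59640 in 4 to 6 (11.66 ± 1.3, edgeR adjusted p = 0.00046). Actb rose by 5.01 ± 0.94 (edgeR adjusted p = 0.00336), and Cdh1 fell by 4.75 ± 0.61 (edgeR adjusted p = 0.00064). Tmsb4x fell by 6.46 ± 0.63 (edgeR adjusted p = 0.000435). Each of these 4 genes had no overlap between the sets of 3. Epcam was called higher there (1.77 ± 0.61, edgeR adjusted p = 0.0466), a call that did not hold without dDAVP library 6 or under 9 other settings, and Tgfbr1 was at -2.09 ± 1.69 with dDAVP library 6, at 15.4, at the level of libraries 1 to 3, and at -8.77 without it. The share of counts from genes up to 1000 bp was 29.6 ± 4.24% in dDAVP 1 to 3 and 7.75 ± 5.62% in 4 to 6 (SD, n = 3 per set; exact permutation test, two-sided, p = 0.1, the smallest that 3 against 3 allows).

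**Figure D5:**
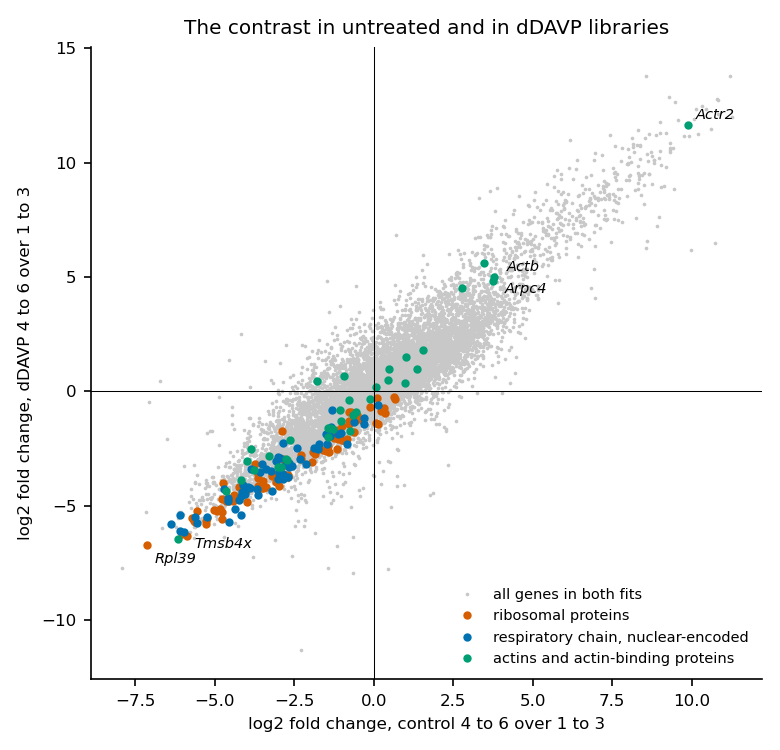
Log2 fold change of libraries 4 to 6 over 1 to 3 in control (horizontal) and dDAVP (vertical) libraries, 1 point per gene for 9389 genes, with ribosomal protein, respiratory chain and actin genes in colour. The points follow a rising line, with Actr2 at 9.88 and 11.66 and Rpl39 at -7.15 and -6.69.

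A test of whether the contrast differs between treatments, over 10590 genes and 12 libraries, called 0 genes by edgeR's quasi-likelihood test (778 at an unadjusted p under 0.05) and 15 by DESeq2. GC content was the feature whose pattern looked least alike: in dDAVP the median was 0.39 for genes up to 40% GC, 0.03 for 45 to 50% and 1.37 for genes over 60%, where control rose throughout from -0.58. That difference between treatments was not tested. Aqp2 stood at 778.0, 1691 and 1520 in dDAVP libraries 1 to 3 and at 591.5, 683.5 and 128.6 in 4 to 6, a change of -1.51 ± 0.68 that was not called (edgeR adjusted p = 0.11), beside 0.59 in the control libraries. Without dDAVP library 6 the change of Aqp2 was -1.17 and was called. In the test of the difference between treatments over all 12 libraries, Aqp2 was at -2.11 ± 0.73 and was not called (edgeR adjusted p = 0.617).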

How the data were processed

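Per the submitters' processing notes, 50-base single-end reads were processed with STAR 2.4.0.1, SAMtools and HTSeq on mm10; the annotation release and strand setting are not given in the sources used here, so overlapping and antisense genes are uncertain. The authors deposited raw counts per gene and FPKM values. Gene length was taken from the ratio of count to FPKM. The comparison, members and gene lists were chosen with earlier results of these data known. Counts were fitted with edgeR 4.0.16 (TMM, filterByExpr, quasi-likelihood, Benjamini-Hochberg) in R 4.3.3; limma 3.58.1, DESeq2 1.42.0 and other scalings and filters were alternatives. The fitting was tested on simulated data in which only a small seeded set of genes differed between the sides. A change in as large a share of genes as seen here was not simulated. Transcript GC content and exon number came from GENCODE M21 and were found for 9354 of 9926 fitted genes. Of 27 gene symbols turned into dates, 22 were restored. A floor is 3 counts per library.

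Genes were named by rule: a fixed set of markers, the 8 largest changes either way among called genes that averaged 5 normalised CPM or more and did not overlap between sets, and up to 3 called genes per list. Some items that the rule picks are not reported here. Genes named beyond these, such as subunits of the Arp2/3 complex, partners of named genes and the most counted genes, were chosen after their values were seen. p-values measure only the spread between these libraries.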

Additional observations from a re-analysis of the deposited data

How the results depend on the processing

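The counts of genes called in the control libraries stayed within 1.5 times of 3312 higher and 2599 lower under every alternative run. In the dDAVP libraries 1984 genes were called higher, 1291 with library totals only and 811 on log2(FPKM + 1). Leaving out 1 dDAVP library gave 1001 (without library 2) to 2888 (without library 6) called higher and 1187 to 2506 (without library 6) called lower, against 1649. The difference of the contrast between treatments, with 0 calls by edgeR (778 genes at an unadjusted p under 0.05), had 2 higher and 13 lower by DESeq2 and 1 lower by edgeR without dDAVP library 6. The causes of these shifts were not tested. The median of very long transcripts in control was 1.01 and 0.09 on log2(FPKM + 1). Of the dDAVP values of single genes under alternatives, 39 lost and 17 gained a call and 1208 did neither. Actg1 in dDAVP (-1.29, edgeR adjusted p = 0.0981) gained one by DESeq2, by voom, and without library 4 or 6.

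No paired analysis was possible because libraries 4 to 6 and 1 to 3 share no replicate number. For the difference between treatments, the fit with replicate number as a block called 0 genes (701 at an unadjusted p under 0.05). Same-numbered control and dDAVP libraries had correlated deviations between -0.20 and 0.30, so the numbers were not taken as pairs. Low levels are limited by depth, with 3 counts equal to 0.082 to 0.128 CPM.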
